A study of Mus musculus with 6 samples.

Results

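The 8 genes described here belong to extrinsic apoptosis and necroptosis and were taken by symbol: the receptor genes Fas and Tnfrsf10b, the adaptor gene Fadd, Casp8 with its regulator Cflar, and Ripk1, Ripk3 and Mlkl of the necroptosis arm. All 8 were found among the 21878 genes of the count table. The libraries came from wild-type macrophages grown from C57BL/6 bone marrow with macrophage colony-stimulating factor (50 ng/mL), which had shared medium for 48 h with LLC, a line of mouse lung carcinoma cells, across a membrane with 0.4 µm pores. After a change of medium, 3 libraries are labelled as from cells given 100 µg/mL of the plant sesquiterpene β-elemene for 24 h, and 3 as from cells given an equal volume of PBS for 24 h, so that all 6 had been conditioned by tumour cells and no library is from unconditioned macrophages. The labels do not say whether the 3 libraries of a group came from separate animals or cultures, so the spread behind each p-value is that of these libraries and may be technical. In bulk RNA, fewer cells of a type and less RNA per cell cannot be told apart.

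Extrinsic apoptosis is the form of cell death that starts at a receptor on the cell surface, and necroptosis is the lytic death that the same receptors can start when caspase 8 is not active. Ligands such as FASL, TRAIL and TNF bind receptors with a death domain, the adaptor FADD joins them, and FADD gathers procaspase 8 and its catalytically inactive relative c-FLIP, which sets how far caspase 8 is activated. Caspase 8 cuts the kinases RIPK1 and RIPK3; where it does not, RIPK3 phosphorylates the pseudokinase MLKL, which then breaches the plasma membrane. Macrophages are a cell type in which both forms of death are well known, after TNF, Toll-like receptor ligands and interferons.

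Libraries held between 18916844 and 20729887 counts. All 8 macrophage markers checked were above 1 CPM on average (counts per 1000000 counts of the TMM-scaled library), with a sum of 16588 to 17158 CPM with β-elemene and 12710 to 13685 CPM with PBS. Lyz2 made up most of that sum (9203 and 6776 CPM), and the markers did not move together. Csf1r, the receptor for macrophage colony-stimulating factor, was at 928 CPM with β-elemene and 2672.5 CPM with PBS and Itgam at 861 and 1028 CPM, both called lower. With the same TMM scaling the other 6 were called higher, among them Fcgr1 (1490.3 and 206 CPM) and Cd14 (1158 and 235 CPM). The marker calls were not tried under other library scalings, which shift all genes. No direction is therefore given for small differences such as that of Cd68 (1384 and 1163 CPM) or of the sum. Of 6 epithelial markers that could mark carried-over carcinoma cells, Krt19 and Cldn4 were at 0 and the sum of the list was at most 0.155 CPM in any library. Markers of other cells were scarce but differed between groups: 6 neutrophil markers summed to 27.1 to 31.9 CPM with β-elemene and 8.97 to 12.9 with PBS, 5 fibroblast markers to 1.56 to 3.38 and 12.7 to 16.4, and 4 endothelial markers, chiefly Pecam1, to 2.60 to 4.06 and 16.3 to 20.8. T or NK cell markers summed to 5.73 to 7.97 and 5.26 to 6.91, B cell markers to 0.492 to 1.11 and 0.117 to 0.233, and dendritic cell markers to 2.86 to 8.83 and 3.76 to 4.66. The part of such cells in the results below was not tested.

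Upstream sequence is shown first for Fas and Cflar, which rose, and for Ripk3, which fell, because these genes moved in opposite directions. Of the 8 members, 7 had an entry in the RefSeq promoter table (GRCm38.p6), Ripk1 with 2 start sites. The 250 bases before each listed start were searched on both strands for the interferon-stimulated response element as GAAANNGAAA, the gamma-activated site as TTCNNNGAA and the consensus κB motif. Printed here are only the bases of each window that lie outside the RefSeq span of the gene, 238 for Fas, 70 for Cflar and 250 for Ripk3, with capitals for a match. The windows of Casp8, of Mlkl and of the second listed start of Ripk1 lie inside the spans of their genes and are not printed.

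Fas (chr19:34290409-34290646, plus strand): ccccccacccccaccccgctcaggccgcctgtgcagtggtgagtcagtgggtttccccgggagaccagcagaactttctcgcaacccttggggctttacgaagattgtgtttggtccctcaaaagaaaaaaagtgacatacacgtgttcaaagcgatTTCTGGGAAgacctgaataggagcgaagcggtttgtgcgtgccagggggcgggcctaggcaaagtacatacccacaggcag
Cflar (chr1:58711241-58711310, plus strand): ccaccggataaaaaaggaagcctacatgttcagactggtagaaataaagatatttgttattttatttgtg
Ripk3 (chr14:55788858-55789107, minus strand): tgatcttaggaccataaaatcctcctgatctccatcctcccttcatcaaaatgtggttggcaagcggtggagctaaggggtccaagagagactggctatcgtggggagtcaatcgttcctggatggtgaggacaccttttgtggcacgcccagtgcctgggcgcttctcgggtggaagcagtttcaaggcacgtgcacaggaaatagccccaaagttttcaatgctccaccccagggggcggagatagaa

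Fas held a match, a gamma-activated site 93 to 85 bases before its listed start. The Fas window ends at 34290658, inside the RefSeq span of the gene, so these distances are not counted from the first base of that span. Ripk1 held the same motif at 108 to 100 and at 11 to 3 bases before the second of its listed starts, in a window inside the span of the gene. No window of the 7 members held GAAANNGAAA or the κB motif. Over all 32851 promoter entries, 2.98% held GAAANNGAAA, 7.02% the gamma-activated site and 3.9% the κB motif. Such matches are descriptions of letters, and a window without one says only that these letters are not in these 250 bases.

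The comparison of β-elemene with PBS asked which transcripts of this pathway differ between the treatments in macrophages that had shared medium with tumour cells. Mlkl, the executor of necroptosis, rose 18.3-fold, Cflar 7.83-fold, Casp8 3.45-fold and Fas 3.13-fold, while Ripk3, the kinase that activates MLKL, fell to 0.484 of its PBS level and Fadd to 0.716. Leaving aside Tnfrsf10b, which was near the limit of detection, 5 of the 7 members were higher and 2 were lower (edgeR quasi-likelihood test, Benjamini-Hochberg adjustment over all 11459 genes tested, threshold 0.05). Over all genes tested, 36.6% were higher and 40.2% were lower, so a call in either direction is by itself common in these data. The groups did not overlap for any of the 7, and they did not overlap for 79.9% of all genes tested. The higher members include Ripk1, whose direction depends on how libraries are scaled, as given below with its values.

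**Figure D1:**
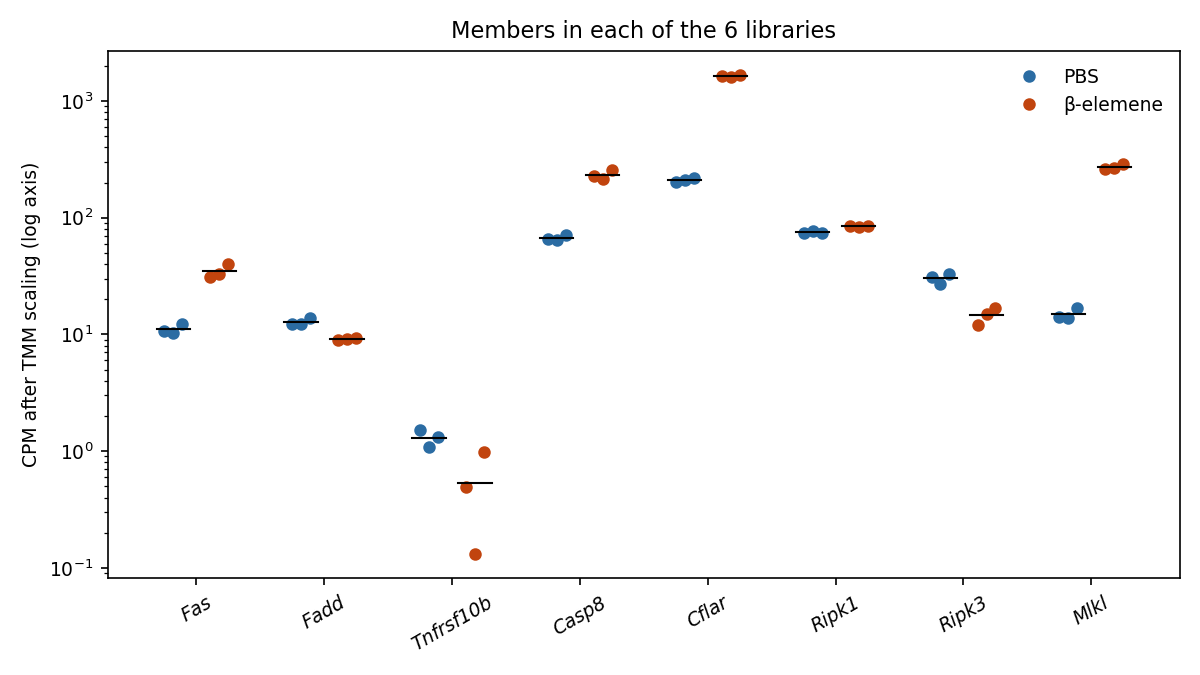
CPM after TMM scaling (log axis) of each member in the 3 PBS (blue) and 3 β-elemene (orange) libraries, with the group mean as a black line. The 2 groups are far apart for Mlkl and Cflar, close together for Ripk1 and Fadd, and widely scattered for Tnfrsf10b with β-elemene.

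Fas (chromosome 19, 34290647 to 34327775 in RefSeq on GRCm38.p6, as for the genes that follow, plus strand), the receptor for FASL, stood at 10.7, 10.2 and 12.4 CPM in PBS replicates 1, 2 and 3 and at 31.3, 32.7 and 40.2 CPM in β-elemene replicates 1, 2 and 3. Every β-elemene library was above every PBS library, and β-elemene replicate 3 was the highest. The group means were 34.7 ± 4.77 CPM with β-elemene and 11.1 ± 1.13 CPM with PBS (SD, n = 3 each), which differ by 1.65 on the log2 scale (SE 0.11, adjusted p = 1.44e-08 by edgeR). In the GENCODE annotation the only gene overlapping Fas is Gm27818, a small RNA gene that the count table does not list.

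Tnfrsf10b (chromosome 14, 69767472 to 69784411, plus strand) encodes the death receptor for TRAIL in the mouse. It had 39, 28 and 34 counts in the PBS libraries and 8, 2 and 16 in the β-elemene libraries, or 1.51, 1.09 and 1.33 CPM against 0.492, 0.130 and 0.981. The highest β-elemene library lay just under the lowest PBS library, and the β-elemene libraries were widely scattered. It fell by 1.26 on the log2 scale (SE 0.45, adjusted p = 0.0214 by edgeR), and the summed counts, 101 against 26, gave a scaled ratio of 2.41 of PBS over β-elemene with an exact 95% binomial interval of 1.55 to 3.87, which covers counting error only. The gene passed the count filter through the PBS libraries, since 1 of 3 β-elemene libraries reached the minimum. A gene this scarce with β-elemene is tested only where PBS libraries reach the minimum. That favours a call of lower, so the call supports nothing further. The call was lost without β-elemene replicate 1 (adjusted p = 0.0791), β-elemene replicate 2 (log2 fold change -0.80, adjusted p = 0.0852) or PBS replicate 1 (adjusted p = 0.0686), against a range of 0.00112 to 0.0852 over all alternatives.

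Fadd (chromosome 7, 144578323 to 144582441, minus strand), the adaptor that links death receptors to caspase 8, stood at 12.2, 12.2 and 13.8 CPM with PBS and at 8.92, 9.18 and 9.26 with β-elemene. All 3 β-elemene libraries were lower than all PBS libraries, by a small margin. The means with β-elemene and with PBS were 9.12 ± 0.178 and 12.7 ± 0.926 CPM (SD, n = 3), which differ by -0.48 on the log2 scale (SE 0.10, adjusted p = 8.60e-04 by edgeR). An annotated antisense gene, Faddos, overlaps Fadd and is not listed in the count table; whether the counting used strand is not given in the sources used here, and without strand reads of the pair cannot be told apart.

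Casp8 and Cflar lie side by side on chromosome 1, and both rose. Casp8 (58795233 to 58847503, plus strand), the initiator protease of extrinsic apoptosis, stood at 66.0, 64.2 and 70.8 CPM with PBS and at 227, 213 and 254 CPM with β-elemene. The lowest β-elemene library was well above the highest PBS library. The means with β-elemene and with PBS were 231 ± 21.2 and 67.0 ± 3.44 CPM (SD, n = 3), which differ by 1.79 on the log2 scale (SE 0.07, adjusted p = 5.24e-11 by edgeR). Cflar (58711311 to 58758884, plus strand), which encodes c-FLIP, stood at 203, 209 and 219.8 CPM with PBS and at 1652, 1617.5 and 1678 CPM with β-elemene. The β-elemene libraries were tightly grouped and far above the PBS libraries. The means with β-elemene and with PBS were 1649 ± 30.2 and 211 ± 8.39 CPM (SD, n = 3), which differ by 2.97 on the log2 scale (SE 0.06, adjusted p = 1.45e-13 by edgeR). Gene counts do not separate the long and short forms of c-FLIP. Of the 75-base words in annotated Cflar transcripts, 5.17% also occur in transcripts of other genes, against 1.95% for Casp8 and 0% for Fas, Ripk3 and Mlkl.

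Ripk1 (chromosome 13, 34002225 to 34035170, plus strand), the kinase and scaffold shared by survival signalling, apoptosis and necroptosis, stood at 74.6, 76.3 and 74.2 CPM with PBS and at 85.2, 82.9 and 84.4 CPM with β-elemene. The groups did not overlap, but the difference was the smallest among the members. The log2 fold change was 0.17 (SE 0.05, edgeR adjusted p = 0.0119) with TMM scaling, -0.15 (adjusted p = 0.0191) with the upper quartile and -0.47 (adjusted p = 1.73e-06) with library size alone, and the call was lost without PBS replicate 3 (0.16, adjusted p = 0.0517). No direction for Ripk1 holds over the scalings tried. Serpinb6a overlaps it on the opposite strand by 432 bases, and 5.24% of its 75-base words occur in the processed pseudogene Gm17084, which lies within it.

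Ripk3 (chromosome 14, 55784995 to 55788857, minus strand) stood at 31.2, 27.1 and 32.9 CPM with PBS and at 12.1, 15.1 and 16.9 CPM with β-elemene. Every β-elemene library was lower than every PBS library. The means with β-elemene and with PBS were 14.7 ± 2.46 and 30.4 ± 2.96 CPM (SD, n = 3), which differ by -1.05 on the log2 scale (SE 0.12, adjusted p = 3.77e-06 by edgeR).

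Mlkl (chromosome 8, 111311255 to 111338479, minus strand), the substrate of RIPK3, moved the opposite way. It stood at 14.2, 13.8 and 16.9 CPM with PBS and at 263, 269 and 287 CPM with β-elemene. The 2 groups were further apart than those of any other member. The means with β-elemene and with PBS were 273 ± 12.5 and 14.95 ± 1.72 CPM (SD, n = 3), which differ by 4.19 on the log2 scale (SE 0.08, adjusted p = 5.28e-14 by edgeR). The size of this change was at or above that of 96.3% of genes tested, where Cflar stood at 92.2%, Casp8 at 81.6%, Fas at 79.7%, Ripk3 at 65.9%, Fadd at 40.9% and Ripk1 at 16.0%.

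**Figure D2:**
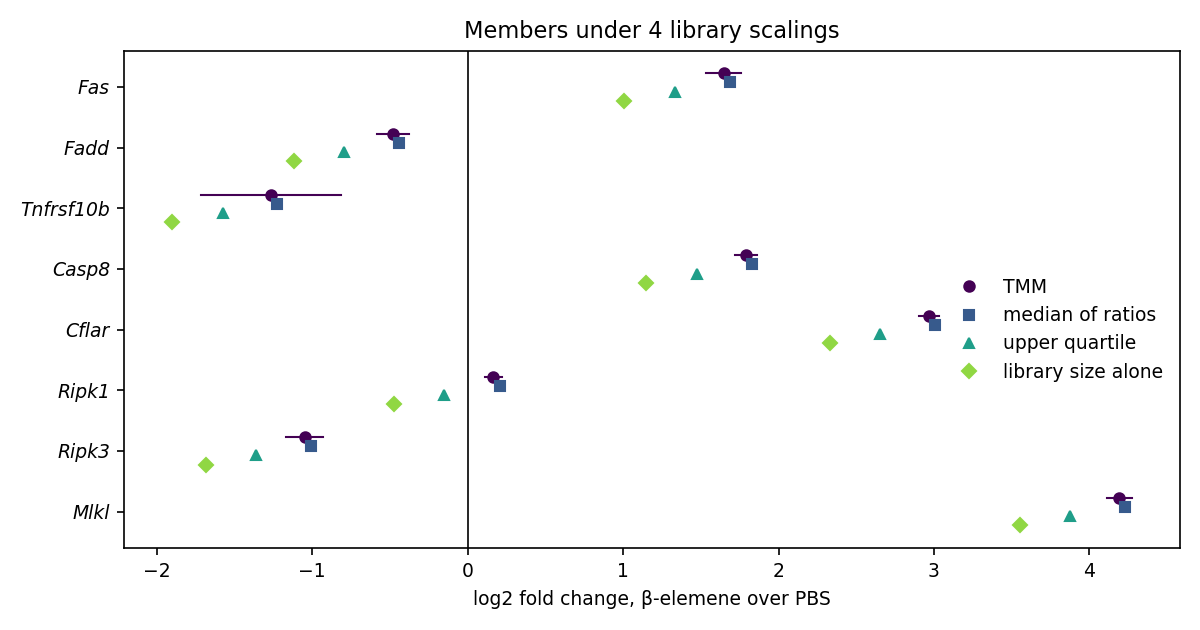
Log2 fold change of each member, β-elemene over PBS, under 4 scalings of the libraries (marker shapes), with a bar of 1 SE on the TMM value. Ripk1 crosses 0, from 0.17 with TMM to -0.47 with library size alone, and the other 7 members stay on the side of 0 they have with TMM.

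The scaling matters because TMM factors separated the groups, at 0.794 to 0.812 in the β-elemene libraries and 1.24 to 1.26 in the PBS libraries. Against TMM, the median over all genes shifted by -0.64 in log2 when library size alone was used and by -0.32 with the upper quartile. Mlkl then stood at 3.55, Cflar at 2.33, Casp8 at 1.15, Fas at 1.01, Ripk3 at -1.69 and Fadd at -1.12 with library size alone.

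The ratio of 2 genes within a library does not depend on this scaling, so 4 ratios of read counts were compared as well. Cflar reads outnumbered Casp8 reads 3.14-fold with PBS and 7.14-fold with β-elemene. The log2 ratios were 1.62, 1.70 and 1.63 in the PBS libraries and 2.86, 2.93 and 2.72 in the β-elemene libraries, so the transcript of the caspase 8 regulator gained on that of the protease by 1.18 on the log2 scale (SE 0.07). Mlkl reads were fewer than Ripk3 reads with PBS, at a ratio of 0.492, and 18.7 times as many with β-elemene. The log2 ratios of that pair were -1.14, -0.98 and -0.96 against 4.45, 4.15 and 4.08, a difference of 5.25 (SE 0.12), the widest of the 4. The log2 ratio of Ripk3 to Ripk1 differed by -1.22 (SE 0.18), from -1.31 ± 0.165 to -2.53 ± 0.259, and that of Fadd to Casp8 by -2.26 (SE 0.07), from -2.40 ± 0.0399 to -4.66 ± 0.124 (SD, n = 3). For each of the 4 the groups did not overlap, and the two-sided exact permutation test gave p = 0.10, also after adjustment over the 4, which is the smallest that 3 libraries against 3 allow. Ratios of other gene pairs were not computed, so no share over pairs stands beside this. Among single genes tested, the groups did not overlap for 79.9%.

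**Figure D3:**
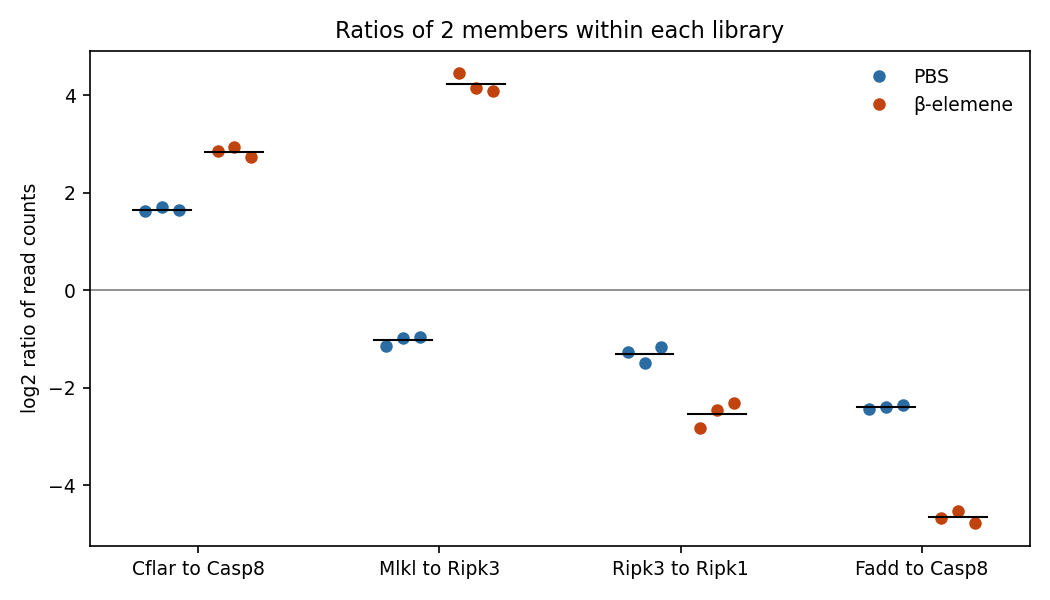
Log2 ratio of the read counts of 2 members in each PBS (blue) and β-elemene (orange) library, with group means as black lines. The ratio of Mlkl to Ripk3 lies below 0 in all PBS libraries and above 4 in all β-elemene libraries, and the ratio of Fadd to Casp8 falls from about -2.40 to -4.66.

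Levels can be set between genes only per length, here as CPM per kb of annotated exon (GENCODE M21, GRCm38). With PBS the order was Casp8 at 23.2 ± 1.19, Cflar at 16.6 ± 0.662, Ripk3 at 13.3 ± 1.29, Ripk1 at 8.99 ± 0.135, Mlkl at 6.49 ± 0.747, Fas at 5.38 ± 0.546, Fadd at 3.26 ± 0.237 and Tnfrsf10b at 0.240 ± 0.0389 CPM per kb (SD, n = 3). Mlkl and Fas overlapped in that order, and the other neighbours did not. With β-elemene the order was Cflar at 130.2 ± 2.38, Mlkl at 119 ± 5.45, Casp8 at 79.99 ± 7.31, Fas at 16.8 ± 2.31, Ripk1 at 10.1 ± 0.136, Ripk3 at 6.41 ± 1.07, Fadd at 2.34 ± 0.0457 and Tnfrsf10b at 0.0980 ± 0.0783 CPM per kb, with no overlap between neighbours. Ripk3 thus went from the third place to the sixth and Mlkl from the fifth to the second. The lead of Casp8 over Cflar with PBS rests on the length used: per kb of the longest coding transcript, Cflar stood at 32.0 and Casp8 at 25.9, and Fas (7.49) and Mlkl (7.46) were level, while the order with β-elemene was the same.

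**Figure D4:**
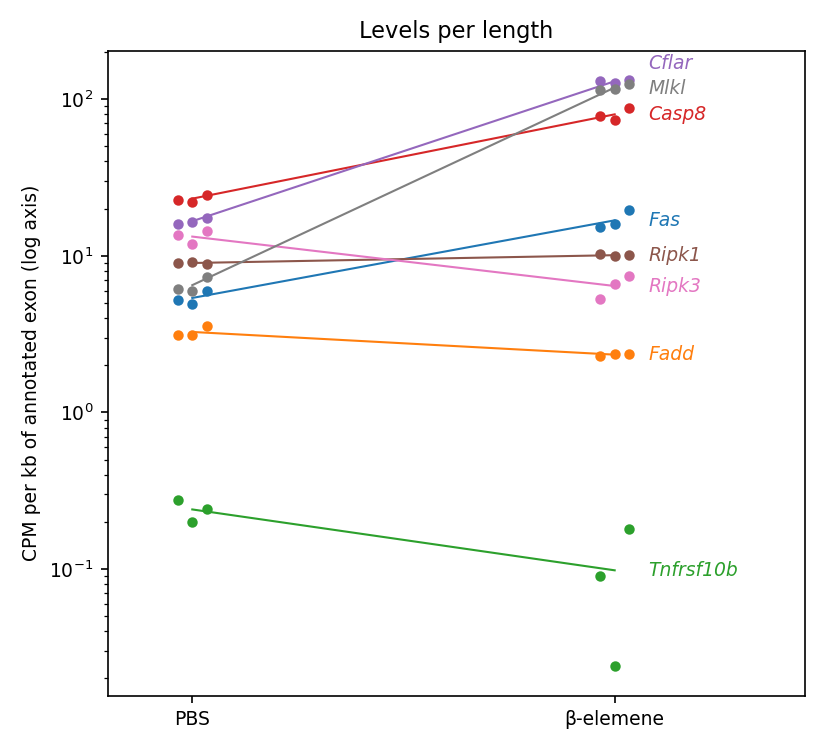
CPM per kb of annotated exon (log axis) of each member, with points for the 3 libraries of a group and a line joining the group means. The lines of Mlkl and Ripk3 cross between PBS and β-elemene, and Mlkl with β-elemene lies just under Cflar.

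For each member the gene of most similar profile was sought over the 6 libraries, by the root mean square difference of log2 CPM centred on each gene's mean. Stat2 was nearest to Cflar (0.02), Ifi47 to Mlkl (0.03), Tax1bp1 to Casp8 (0.04), Asf1a to Fas (0.07), Dhodh to Ripk3 (0.07), Mterf4 to Fadd (0.03) and Cdipt to Ripk1 (0.02), all in log2 units. For Tnfrsf10b the nearest gene, Fam188b, was 0.28 away. With 2 groups of libraries, a gene of similar log2 fold change is near by this measure. Cflar and Stat2 had 2.97 and 2.96, and Mlkl and Ifi47 had 4.19 and 4.22. Shared regulation was not tested.

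Around the 8 members, the ligand genes held the largest changes. Tnf, which acts through TNF receptor 1, was measured at 1719 ± 79.0 CPM after β-elemene and at 12.8 ± 2.33 CPM after PBS (log2 difference 7.06, SE 0.13, adjusted p = 3.13e-13 by edgeR), and Tnfsf10, which encodes TRAIL, at 329 ± 54.5 against 1.35 ± 0.282 CPM (7.93, SE 0.18, edgeR adjusted p = 9.36e-10). Tnfsf12, which encodes TWEAK, fell by 0.56 on the log2 scale. Tnfsf15, which encodes the TL1A ligand of death receptor 3, had 8 counts in each PBS library and 5256 to 6349 in the β-elemene libraries, and so passed the filter through the latter. Fasl was not tested, with 1 count over all 6 libraries. Lta had 5 to 7 counts per PBS library and 10 or 11 per β-elemene library and was not tested. In the β-elemene libraries the transcript of the TRAIL receptor, Tnfrsf10b, was at 0.534 ± 0.427 CPM, too scarce to support a statement on ligand and receptor together. Fas was higher in libraries with 1 count of Fasl among them.

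Among other death and decoy receptors, Tnfrsf1a, the main receptor for TNF, rose from 188 ± 0.811 to 339 ± 4.42 CPM (log2 difference 0.86, SE 0.05, adjusted p = 3.41e-09 by edgeR; 0.22 with library size alone). Tnfrsf21, death receptor 6, fell by 1.85 on the log2 scale, and Tnfrsf26 fell by 3.83, from 46.3 ± 7.35 to 3.25 ± 0.901 CPM. The related Tnfrsf22, a decoy receptor for TRAIL, stood at 86 to 99 counts per PBS library and 4 to 16 per β-elemene library (log2 difference -2.63), so that it passed the count filter through the PBS libraries and its call supports nothing further. Tnfrsf23, the other mouse decoy, fell by 0.63 (edgeR adjusted p = 0.0266), with groups that overlapped. Tnfrsf22, Tnfrsf23 and Tnfrsf26 are similar genes whose reads the authors' counting could have split, so single values are uncertain. Tnfrsf25 and Ngfr were too scarce to test and Edar had 0 counts in all libraries, while Tnfrsf11b passed the filter through the β-elemene libraries (11 to 23 counts against 3 to 7).

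At the TNF receptor, RIPK1 sits in a complex whose ubiquitin chains decide between survival and death. Of 20 genes of this complex and its ubiquitin system, all tested, 12 rose, 2 fell and 6 did not pass, with a median log2 fold change of 1.20 where that of all genes was -0.06. Of all genes tested, 36.6% were higher and 40.2% were lower. Tnfaip3, the ubiquitin-editing enzyme A20, rose from 99.4 ± 9.29 to 1309 ± 163 CPM, and its partner gene Tnip1 and Rnf31, the catalytic subunit of the linear ubiquitin ligase, were up by 3.31 (SE 0.08) and 3.19 (SE 0.08) on the log2 scale. Otulin, which removes linear chains, fell by 0.70 on the log2 scale, and the adaptor gene Traf5 fell by 0.60. With the upper quartile 11 rose and 6 fell, beside 2947 higher and 6528 lower of all 11459 genes tested. With library size alone 11 rose and 9 fell, beside 2166 higher and 8003 lower of all genes tested.

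Downstream of caspase 8, 9 of 14 genes of the executioner arm rose, 4 fell and Bax did not pass, with a median of 1.06. Among all genes tested, 36.6% were higher and 40.2% were lower. Casp6, a caspase of this arm, fell from 33.1 ± 0.532 to 7.07 ± 0.657 CPM (log2 difference -2.23, SE 0.09, adjusted p = 7.00e-11 by edgeR). Apaf1, the core of the apoptosome, rose by 1.94, and Casp9, the protease it activates, fell by 1.04 on the log2 scale. These 3 kept their directions under all 4 scalings.

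Of 7 genes that feed signals into necroptosis, 6 rose and Tlr4, the lipopolysaccharide receptor, fell by 1.25 on the log2 scale, with a median of 1.12. The shares over all genes tested were 36.6% higher and 40.2% lower. Tlr3, a receptor for double-stranded RNA that reaches RIPK3 through the adaptor TRIF, rose from 13.4 ± 0.752 to 352 ± 52.6 CPM (log2 difference 4.72, SE 0.12, adjusted p = 4.15e-11 by edgeR). Zbp1, a nucleic acid sensor that binds RIPK3 directly, and Eif2ak2, the RNA-activated kinase PKR, rose by 3.28 (SE 0.16) and 3.33 (SE 0.09). The rises of Ticam1, which encodes TRIF, and Ifnar1 were not kept with library size alone, at -0.15 and 0.0043 in place of 0.49 and 0.64.

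Of 15 regulators of necroptosis and of membrane repair, 10 rose, 3 fell and 2 did not pass, with a median of 0.30, less than the shift of all genes between scalings. These counts stand beside 36.6% higher and 40.2% lower over all genes tested. Peli1, a ubiquitin ligase that acts on RIPK1 and RIPK3, rose from 28.9 ± 0.121 to 328 ± 29.3 CPM (log2 difference 3.51, SE 0.07, adjusted p = 1.00e-13 by edgeR). Chmp4b, a membrane-scission subunit of the ESCRT-III complex, and Ppm1b, a phosphatase of RIPK3, rose by 1.75 and 1.18. Ipmk, an inositol phosphate kinase, and Pgam5, a mitochondrial phosphatase, fell by 0.37 and 0.34. With library size alone there were 5 higher and 10 lower, beside 2166 and 8003 of all 11459 genes tested. Under upper quartile scaling there were 6 higher and 5 lower, beside 2947 and 6528 of all genes tested. The balance of this list thus depends on the scaling, as does that of all genes. These values are transcript levels; cleavage of caspases, phosphorylation of MLKL and cell death were not measured in these files.

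**Figure D5:**
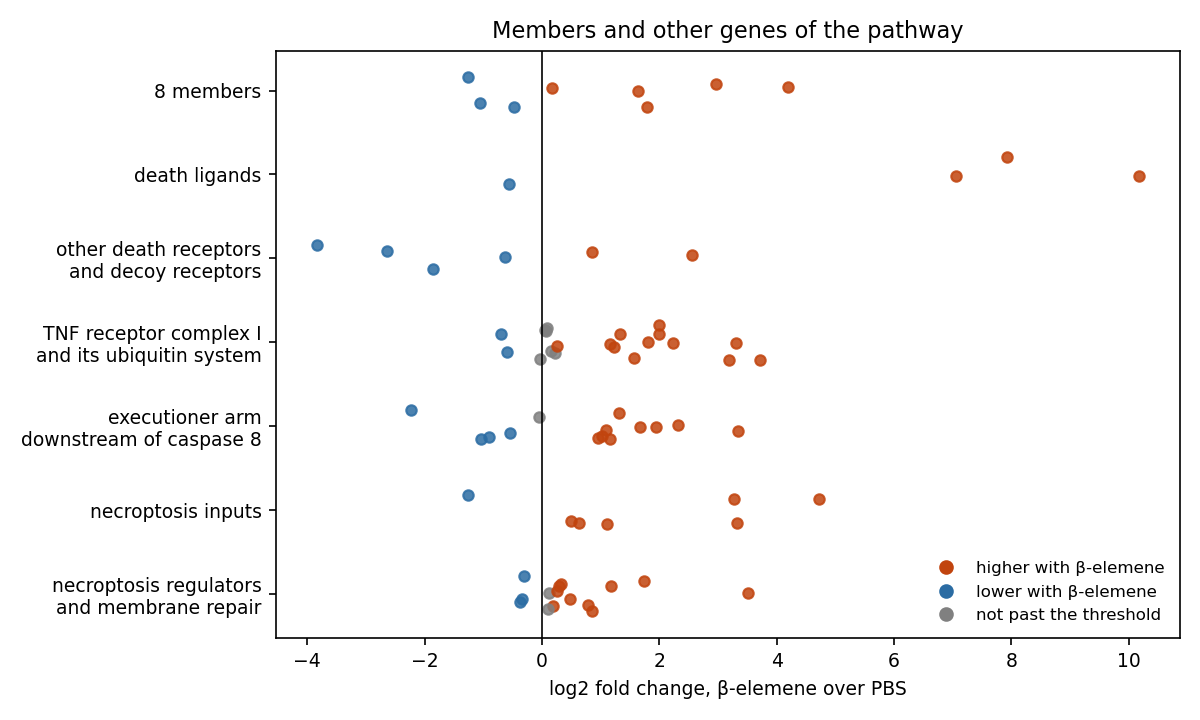
Log2 fold change, β-elemene over PBS with TMM scaling, of the 8 members and of each tested gene in the 6 lists of other pathway genes (rows; points are spread vertically for legibility). The ligand genes Tnfsf15, Tnfsf10 and Tnf lie furthest to the right.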

How the data were processed

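RNA was sequenced from 6 macrophage libraries, 3 per group, grouped by title. RNA had an integrity number of at least 7 and libraries were made with a stranded mRNA kit, per the labels' protocols. The submitters' processing notes name HISAT2 2.2.1.0 with GRCm38.p6 and mm10. Raw gene counts are what the authors deposited. Neither the counting tool nor its strand setting was given in the sources, so reads of near-identical or antisense genes could be misassigned. Of 21878 genes, 6562 had no count.

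Genes were kept by edgeR's filterByExpr (count minimum 10, total minimum 15), which left 11459, then scaled with TMM and tested with edgeR 4.0.16 in R 4.3.3 (robust glmQLFit, glmQLFTest, group as the only term) with Benjamini-Hochberg adjustment over all genes at 0.05. Each SE was derived from the fitted difference and its F statistic. A count of 0 allows up to 3 counts (0.116 to 0.195 CPM), for counting error only. Replicates differed beyond sampling noise in every pair (chi-square per degree of freedom 3.82 to 13.8). The fit was tested on 1 set of simulated counts, with few genes changed and the TMM-scaled library sizes taken as true, so it could not test the scaling. No changed gene was called in the wrong direction there. The share of calls made on unchanged genes was 9.79%, above the nominal level, so calls near the threshold are less secure. Ratios used counts plus 0.5. Exon lengths, overlaps and shared 75-base words came from GENCODE M21.

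The 8 genes, the 6 lists and the tests were chosen with earlier results of these data known. All 8 members are named. From each list, genes that passed and averaged 1 CPM or more are named in order of change, up to 3 in the commoner direction and 2 in the other, with further genes where a limit or a count required it; some genes that this rule picks are not reported here. Alternatives were other scalings and filters, DESeq2 1.42.0, limma-voom 3.58.1, a replicate block, each library left out, another length and another offset.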

Additional observations from a re-analysis of the deposited data

How the results depend on the processing

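Across the 14 alternatives, Mlkl, Cflar, Casp8, Fas, Ripk3 and Fadd kept their direction and stayed past the threshold. Ripk1 turned from 0.17 to -0.15 with the upper quartile and to -0.47 with library size alone; this follows from the scaling, which moves every gene. The numbers of genes higher and lower, 4189 and 4602, became 2166 and 8003 with library size alone. Leaving out 1 library gave 4021 to 4296 higher and 4347 to 4477 lower, and 4 or 5 members higher and 2 or 3 lower. Where 3 members were lower, Tnfrsf10b was 1 of them, and its call supports nothing further. Over the same omissions the log2 fold change ranged from -2.02 to -0.80 for Tnfrsf10b and from 0.16 to 0.20 for Ripk1, both of which lost the call in some omissions named above, and the ratios from 1.14 to 1.24 (Cflar to Casp8), 5.14 to 5.32 (Mlkl to Ripk3), -1.33 to -1.08 (Ripk3 to Ripk1) and -2.33 to -2.20 (Fadd to Casp8). With an offset of 1 count no ratio changed direction. No labels say that replicate numbers pair libraries, and deviations of same-numbered libraries from their group means correlated at -0.04, 0.04 and 0.01. With the replicate number as a block 4188 genes were higher and 4605 lower. In that fit 5 members were higher and 3 lower, again with Tnfrsf10b among the lower. Depth limits Tnfrsf10b.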

Other observations

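Cflar and Casp8 are neighbours on chromosome 1, with 36348 bases between the end of Cflar (58758884, GRCm38.p6) and the start of Casp8 (58795233) and no other protein-coding gene starting between them. The genes around the pair were looked up after the values of the pair were seen. The nearest on each side, Als2cr12 and Gm28802, were not tested. Further upstream, Ndufb3 stood at 21.3 CPM with β-elemene and 21.0 CPM with PBS (log2 fold change 0.01, edgeR adjusted p = 0.901) and Fam126b fell by 0.64. Further downstream, Trak2 had a log2 fold change of 0.23 (edgeR adjusted p = 0.00220) and Stradb one of -0.22 (edgeR adjusted p = 0.0488), both small beside 2.97 for Cflar and 1.79 for Casp8. Trak2 and Ndufb3 lie within the range by which the scaling moves all genes, so no direction is given for them.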
